A study of Rattus norvegicus with 10 samples.

Results

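The genes described here encode the extracellular matrix of the hippocampus and the receptors that hold cells to it: collagens, laminins, integrins, thrombospondins, and the single genes Fn1, Tgfbi, Sparc, Spp1 and Vtn. They were chosen by name. A gene belonged to the set if its rat symbol was of the form collagen chain (Col, a number, a, a number), laminin chain (Lama, Lamb or Lamc with a number), integrin subunit (Itga or Itgb with a number) or thrombospondin (Thbs with a number), or was one of the 5 named glycoproteins, and if its counts summed to 46 or more over all rats. Of 83 such symbols in the rat RefSeq gene table, 51 were matched to a row of the count matrix, and 48 of these passed the filter on low counts, among 22447 features tested in all. The gene nearest the limit on the inside was Itgb7, with 46 summed counts, and the genes just outside were Thbs4 with 28, Col8a1 with 27 and Itga10 with 27. The other 32 symbols, among them Col4a2, Col5a2, Col6a1, Col6a3, Lama2, Lama4, Itga3, Itga9 and Itgb8, were not analysed here.

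The rats, 10 males of the outbred Sprague-Dawley strain, each gave 1 library of messenger RNA from the left hippocampus. All rats carried a bipolar wire electrode in the left lateral amygdala and screw electrodes in the skull. Sham rats 1 to 5 received no current, and stimulated rats 6 to 10 received 30 min of pulse trains (400 µA, 60 Hz) through the amygdala electrode, meant to start status epilepticus, which diazepam then ended. Tissue, described as dorsal hippocampus in the labels and as CA3 and dentate gyrus in the methods, was taken 3 months later. The groups were matched for age, which was not given in the sources used here. Per the study's methods, all enrolled stimulated rats had spontaneous seizures on video EEG in the last weeks before the end of the experiment. The comparison asks how the hippocampus of such rats, months after status epilepticus, differs from one that had electrodes alone. The earlier status epilepticus and the later seizures cannot be told apart in this design.

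Matrix and integrins work as one system. Collagens of the fibrillar type form ropes in vessel walls and meninges, whereas type IV collagen and laminins, trimers of an alpha, a beta and a gamma chain, form the basement membranes that wrap the vessels of the brain. Fibronectin and related glycoproteins bridge these networks to cells, and integrins, pairs of an alpha and a beta subunit, bind them at the cell surface and couple them to actin through talin, kindlins, vinculin and filamin. In adult brain most of this matrix lies at the vessels and the pial surface, and several members are made by astrocytes and microglia as well.

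Aligned counts per library ran from 13552309 to 24086059. The share of reads left unaligned was 32.82% to 37.09% in the sham rats. In stimulated rats 6 to 10 it was 35.55%, 32.01%, 41.4%, 42.93% and 45.14%. Rats 8, 9 and 10 were thus above each sham rat. The share of aligned counts on ribosomal RNA records was 12.22%, 8.73%, 7.42%, 6.18% and 1.82% in sham rats 1 to 5. It was 3.03% to 5.64% in the stimulated rats. The part of alignment in the group differences was not tested. Levels are given as CPM, counts scaled to the same total in each library with TMM factors. In these units 3 counts, the limit that a count of 0 allows, corresponded to 0.124 to 0.229 CPM. CPM values do not take transcript length into account, so levels of different genes are not compared. The defining markers of the tissue were present in each rat, with Prox1, a marker of dentate granule cells, at 21.3 to 52.0 CPM and Grik4, a marker of CA3, at 138 to 167 CPM over the 10 rats.

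Most of these genes had a higher mean in the stimulated rats, but none passed the main test after adjustment over all features. Of the 48 genes, 35 had a higher mean in the stimulated rats and 13 a lower one, with a median log2 fold change (stimulated over sham) of 0.26 and a range from -0.62 in Col2a1 to 1.82 in Spp1. Over all 22447 features 52.19% had a higher mean and the median log2 fold change was 0.01. At an unadjusted p under 0.05 in edgeR's quasi-likelihood test 14 of the 48 genes (29.17%) were higher, beside 6.7% of all features, and 0 were lower, beside 3.16% of all features. The count of 14 became 6 without sham rat 5, 7 without stimulated rat 10, 8 without sham rat 3, 8 without sham rat 4 and 8 with limma-voom, where 4.98%, 6.2%, 5.62%, 5.16% and 4.89% of all features were higher. With Benjamini-Hochberg adjustment 0 of the 48 genes passed 0.05 in the quasi-likelihood test, and 0.0% of all features did. The adjusted p-values given below are those of edgeR's quasi-likelihood test with Benjamini-Hochberg adjustment unless another test is named, and those of the 14 genes lay between 0.376, the lowest of any feature, and 0.488. Under other count tests 1 of the 48 genes passed, Fn1, with an adjusted p of 0.0113 in edgeR's likelihood ratio test (0.53% of all features passed) and of 0.0149 in DESeq2 (0.147% of all features passed). In no gene of the set did all 5 stimulated rats lie above or all below the 5 sham rats, which held for 1.29% of all features. In bulk tissue, more cells of a type and more RNA per cell cannot be told apart.

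**Figure D1:**
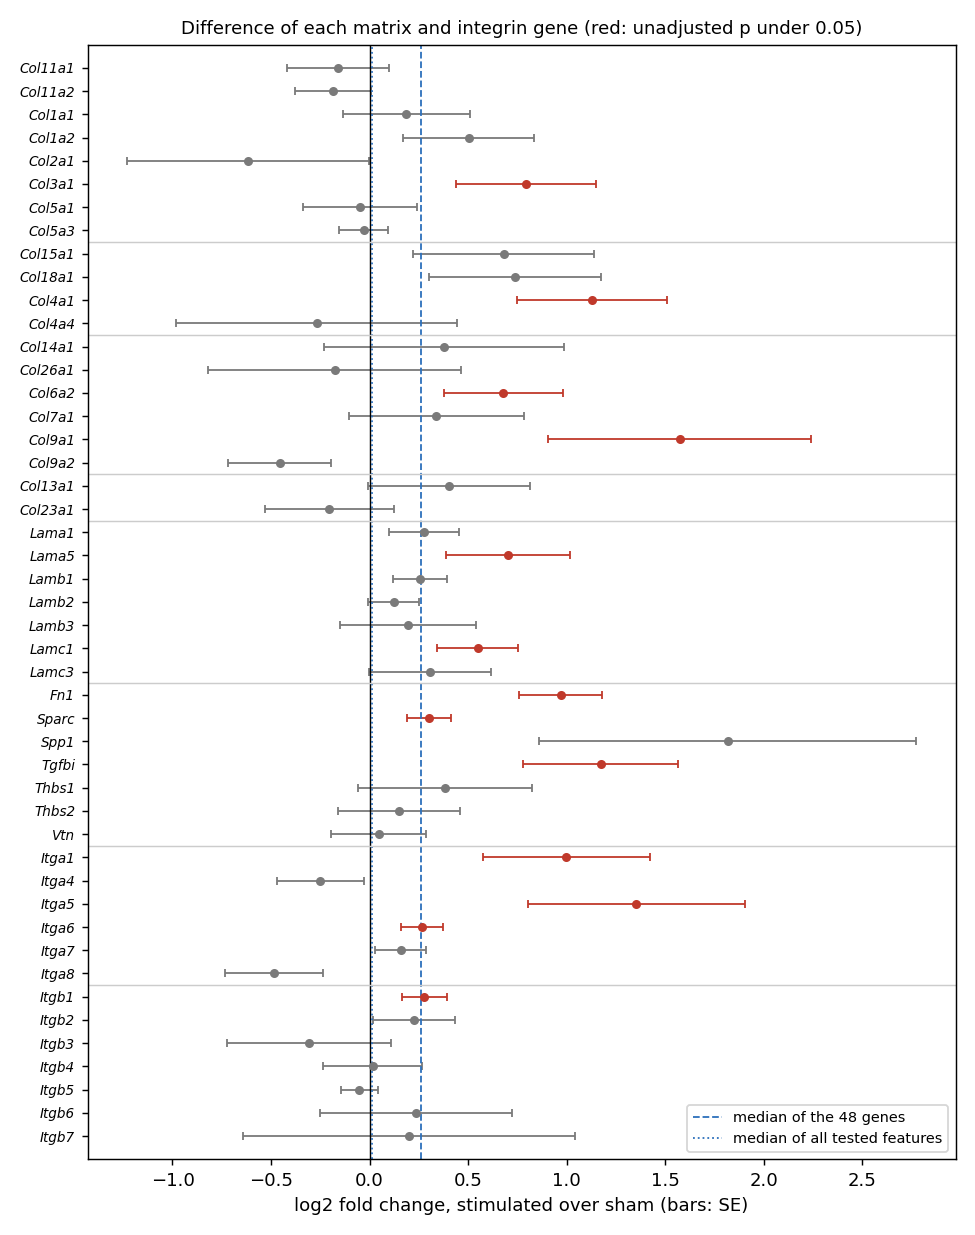
Log2 fold change (stimulated over sham, x axis) of 47 of the 48 genes (y axis, grouped by role), with its SE as the bar. Red points are 13 of the 14 genes with an unadjusted p under 0.05, all to the right of 0, the dashed line is the median of the 48 genes at 0.26 and the dotted line that of all tested features at 0.01.

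The sequences just upstream of the genes are shown for 4 of these 14, as examples of promoters that hold a short element, the GC box. RefSeq promoters of the current rat assembly (GRCr8) were matched by symbol for 34 of the 48 genes, 9 of them among the 14, and the 250 bases before the start were read. The GC box, GGGCGG on either strand, was found in 17 of the 34 promoters, against 32.4% of all 27457 promoters. It was in 6 of the 9, those of Col4a1, Itga5, Itgb1, Lama5, Lamc1 and Tgfbi. The 4 promoters shown are all among these 6, so they cannot show how often the element is shared. The letters of the AP-1 element, TGANTCA, were in 0 of the 34 against 6.36% of all promoters. The cAMP response element TGACGTCA was in 1, Lamb3, against 1.7%, and TATAA on either strand was in 9 against 24.1%. The promoters below run 5′ to 3′ on the strand of the gene and end at the base before its start, with GC boxes (GGGCGG or its reverse complement CCGCCC) in capitals. They lie at chr16:84885347-84885596 on the plus strand (Col4a1), and on the minus strand at chr13:68051987-68052236 (Lamc1), chr17:7990114-7990363 (Tgfbi) and chr7:136381306-136381555 (Itga5), coordinates of GRCr8 and not of the older build to which the reads were aligned.
Col4a1: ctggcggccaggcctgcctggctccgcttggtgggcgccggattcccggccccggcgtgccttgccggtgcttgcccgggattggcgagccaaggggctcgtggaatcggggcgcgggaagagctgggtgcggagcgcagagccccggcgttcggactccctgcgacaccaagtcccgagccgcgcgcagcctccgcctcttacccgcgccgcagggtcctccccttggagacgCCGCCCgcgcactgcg
Lamc1: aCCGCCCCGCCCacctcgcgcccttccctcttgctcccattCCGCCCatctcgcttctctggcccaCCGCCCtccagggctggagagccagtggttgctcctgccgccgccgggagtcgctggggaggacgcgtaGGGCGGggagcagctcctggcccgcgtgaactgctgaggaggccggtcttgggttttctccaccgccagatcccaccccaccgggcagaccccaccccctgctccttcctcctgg
Tgfbi: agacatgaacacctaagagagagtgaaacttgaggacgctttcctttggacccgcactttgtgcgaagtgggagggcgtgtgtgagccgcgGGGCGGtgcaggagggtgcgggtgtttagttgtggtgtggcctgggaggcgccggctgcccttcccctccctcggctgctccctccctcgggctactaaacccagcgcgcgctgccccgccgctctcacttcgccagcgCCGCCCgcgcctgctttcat
Itga5: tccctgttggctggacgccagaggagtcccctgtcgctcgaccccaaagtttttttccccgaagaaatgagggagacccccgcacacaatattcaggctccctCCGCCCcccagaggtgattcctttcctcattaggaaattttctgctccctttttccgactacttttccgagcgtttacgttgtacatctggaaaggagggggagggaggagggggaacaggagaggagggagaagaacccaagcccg
Lamc1, the chain shared by most laminin trimers, had 5 GC boxes in this window, the first pair sharing 1 base, Tgfbi 2, and Col4a1 and Itga5 1 each.

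The adhesive glycoproteins, which link matrix fibres to cells, held the gene with the lowest p of the set. All 7 tested genes of this role had a higher mean in the stimulated rats, with a median log2 fold change of 0.38 (0.25 to 0.65 with 1 rat left out), and 3 had an unadjusted p under 0.05 (Fn1, Tgfbi and Sparc). Fn1 (NM_019143) encodes fibronectin, the glycoprotein bound by the integrin of alpha 5 and beta 1. Fn1 was at 22.4, 30.7, 25.2, 26.0 and 23.2 CPM in sham rats 1 to 5 and at 30.4, 48.0, 42.9, 45.4 and 83.0 CPM in stimulated rats 6 to 10. Rats 7 to 10 lay above each sham rat, and rat 6 lay within the sham range, just under sham rat 2. The log2 fold change of Fn1 was 0.97 (SE 0.21, adjusted p = 0.376), and it was 0.71 without rat 10. The paper lists Fn1 as upregulated in this model, from its own edgeR analysis with fewer stimulated rats and a cut-off on the unadjusted p. The unadjusted p of Fn1 stayed under 0.05 with each of the 10 rats left out in turn, as did those of Tgfbi, Col4a1 and Sparc. It did so in 7 of the 10 fits for Lamc1 and Itga6, and in 6 for Itga5 and Col6a2. For Itgb1, Itga1 and Col9a1 it did so in 5, and for Col3a1 and Lama5 in 3.

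Tgfbi (NM_053802) encodes a secreted protein induced by transforming growth factor beta that binds collagens and integrins. Tgfbi was at 6.46, 7.02, 7.18, 6.16 and 8.55 CPM in the sham rats and at 7.42, 35.8, 6.51, 10.00 and 19.9 CPM in the stimulated rats. Rats 7 and 10 stood out, rat 9 was slightly above the sham range, and rats 6 and 8 were inside it. The log2 fold change of 1.17 (SE 0.39, adjusted p = 0.409) became 0.63 without rat 7. Tgfbi is also among the genes that the paper lists as upregulated in this model, and the paper reports altered methylation in its promoter and introns. Sparc (NM_012656) encodes the collagen-binding matricellular protein osteonectin. Sparc was at 616, 572, 541, 521 and 517 CPM in the sham rats and at 522, 784, 638, 659.7 and 806 CPM in the stimulated rats. Rats 7 to 10 were above each sham rat and rat 6 was within their range. Sparc differed by 0.30 (SE 0.11, adjusted p = 0.418) on the log2 scale. Spp1 (NM_012881) encodes osteopontin, a cytokine-like ligand of integrins made by activated microglia and macrophages. Spp1 was at 0.291, 0.611, 4.25, 1.53 and 0.754 CPM in the sham rats and at 0.543, 21.4, 0.830, 0.867 and 2.63 CPM in the stimulated rats. Rat 7 alone lay above the sham range. The log2 difference of 1.82 (SE 0.96, adjusted p = 0.551) became -0.30 without rat 7. Vtn (NM_019156), which encodes vitronectin, was lowest in rat 7 at 8.17 CPM and highest in rat 8 at 30.0 CPM, with sham rats between 16.8 and 20.9 CPM. Its log2 fold change was 0.05 (SE 0.24), and it was -0.09 with limma-voom. The thrombospondins Thbs1 and Thbs2, secreted proteins known to promote synapse formation when released by astrocytes, differed by 0.38 (SE 0.44) and 0.15 (SE 0.31) on the log2 scale.

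**Figure D2:**
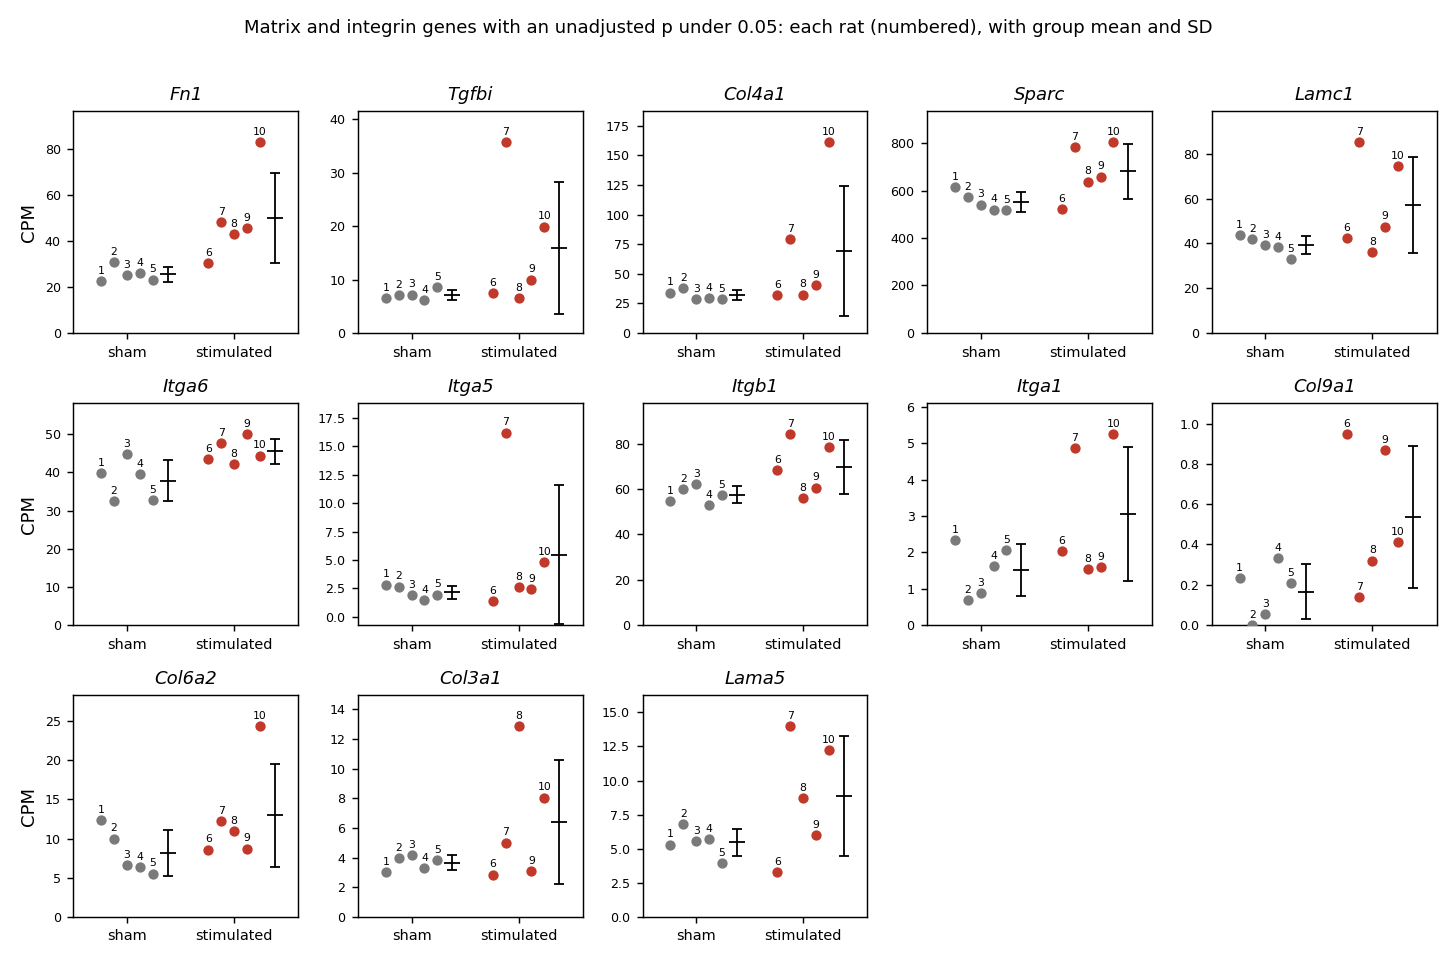
Level in CPM (y axis, linear) of 13 of the 14 genes with an unadjusted p under 0.05, in order of p, in each sham rat (grey, 1 to 5) and stimulated rat (red, 6 to 10). The horizontal tick and bar beside each group are its mean and SD. In most panels rats 7 and 10 stand above the sham rats, whereas rat 8 leads for Col3a1, rat 9 for Itga6 and rat 6 for Col9a1, and in each panel at least 1 stimulated rat lies within the sham range or below it.

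Fibrillar collagens showed no common direction. Among the 8 tested genes 3 had a higher mean and 5 a lower one, with a median log2 fold change of -0.04, and this median ran from -0.13 to 0.11 when single rats were left out. Col3a1 (NM_032085), the type III chain of vessel walls and loose connective tissue, was the only one with an unadjusted p under 0.05. Col3a1 was at 3.02, 3.97, 4.19, 3.27 and 3.81 CPM in the sham rats and 2.85, 5.01, 12.9, 3.11 and 8.05 CPM in the stimulated rats. Rats 8 and 10 stood far above the sham rats, rat 7 slightly above them, and rat 6 below them. Its log2 fold change of 0.80 (SE 0.35, adjusted p = 0.484) became 0.37 without rat 8. Both type I chains were also highest in rat 8, Col1a1 at 26.9 CPM (other stimulated rats 7.66 to 12.7, sham rats 7.38 to 18.8) and Col1a2 at 9.90 CPM (other stimulated rats 2.69 to 4.23, sham rats 2.61 to 4.43). They differed between the groups by 0.19 (SE 0.32) and 0.50 (SE 0.33) on the log2 scale. Col11a2 (NM_212528) encodes a chain of type XI collagen. Col11a2 was at 96.6, 64.0, 99.7, 80.9 and 66.6 CPM in the sham rats and 67.6, 44.8, 63.4, 81.9 and 101 CPM in the stimulated rats. Its log2 fold change was -0.18 (SE 0.19, adjusted p = 0.779). Col2a1, the type II chain of cartilage, was at most at 0.744 CPM in any rat and had 0 counts in rat 8, which allows up to 0.192 CPM there. It had a log2 fold change of -0.62 (SE 0.61). Col11a1, Col5a1 and Col5a3, chains of type XI and type V collagen, had log2 fold changes of -0.16, -0.05 and -0.03, each smaller than its SE.

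The basement membrane and network collagens comprised 4 tested genes, of which 3 had a higher mean, with a median log2 fold change of 0.71 (0.20 to 0.87 with 1 rat left out). Col4a1 (NM_001135009) encodes the alpha 1 chain of type IV collagen, a main component of vascular basement membranes. Col4a1 was at 34.0, 38.1, 28.9, 29.2 and 28.4 CPM in the sham rats and at 32.1, 79.0, 32.4, 40.6 and 162 CPM in the stimulated rats. Rats 10 and 7 were far above the sham rats, rat 9 was just above them, and rats 6 and 8 were within their range. Col4a1 differed by 1.13 (SE 0.38, adjusted p = 0.409) on the log2 scale, and by 0.54 without rat 10. Col18a1, the heparan sulfate-bearing collagen from which endostatin is cut, was at 66.0 CPM in rat 10, with the other stimulated rats between 9.38 and 17.3 CPM and the sham rats between 11.6 and 18.9 CPM. Its log2 fold change was 0.74 (SE 0.43, adjusted p = 0.587). Col15a1, a relative of Col18a1, had a log2 fold change of 0.68 (SE 0.46) at levels under 1 CPM, and Col4a4, a type IV chain best known from kidney, one of -0.27 (SE 0.71) at levels under 1 CPM.

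Of the 6 tested fibril-associated, beaded and anchoring collagens 4 had a higher mean, with a median log2 fold change of 0.36 (0.17 to 0.54 with 1 rat left out), and 2 had an unadjusted p under 0.05. Col6a2 (NM_001100741) encodes a chain of the beaded filaments of type VI collagen. Col6a2 was at 12.3, 10.00, 6.59, 6.37 and 5.53 CPM in the sham rats and 8.60, 12.3, 11.0, 8.72 and 24.4 CPM in the stimulated rats. Only rat 10 lay above the sham range, and the log2 fold change of 0.68 (SE 0.30, adjusted p = 0.481) became 0.32 without it. Col9a1 (NM_001100842), a collagen that decorates cartilage fibrils, was close to the counting limit, with 4, 0, 1, 8 and 5 counts in the sham rats and 21, 3, 5, 17 and 8 in the stimulated rats. Its highest values were 0.950 CPM in rat 6 and 0.867 CPM in rat 9, and its log2 fold change was 1.57 (SE 0.67, adjusted p = 0.460). Col9a2, the partner chain, had a lower mean, with a log2 fold change of -0.46 (SE 0.26). Col7a1, Col14a1 and Col26a1 had log2 fold changes of 0.34, 0.38 and -0.18, each smaller than its SE. The transmembrane collagens were Col13a1 (NM_001109172), at 0.293 to 1.22 CPM in the sham rats and 0.679 to 2.00 CPM in the stimulated rats that differed by 0.40 (SE 0.41, adjusted p = 0.777) on the log2 scale, and Col23a1, with a log2 fold change of -0.21 (SE 0.33).

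Laminin chains all had higher means in the stimulated rats. The 8 tested chains had a median log2 fold change of 0.29, and 3 had an unadjusted p under 0.05, among them Lamc1 and Lama5. All 8 means were also higher under each of the 4 other scalings of library size, and 7 or 8 of them with 1 rat left out. Summed over the 8 genes they were at 162, 161, 166, 159 and 148 CPM in the sham rats and at 169, 214, 184, 194 and 226 CPM in the stimulated rats. These sums did not overlap between the groups, by a narrow gap from 165.6 to 169.2 CPM, whereas those of the other 7 roles did. Integrin alpha sums also did not overlap with library size alone, nor did those of the adhesive glycoproteins without rat 6. No single laminin chain separated the groups, and no share over all features was computed for such sums. Lamc1 (NM_053966) encodes the gamma 1 chain of most laminin trimers. Lamc1 was at 43.6, 41.9, 39.2, 38.2 and 33.0 CPM in the sham rats and 42.4, 85.5, 36.2, 47.5 and 74.7 CPM in the stimulated rats. Rats 7 and 10 stood well above the sham rats and rat 9 slightly. For Lamc1 the log2 fold change of 0.55 (SE 0.21, adjusted p = 0.420) became 0.36 without rat 7. Lama5 (NM_001191609) encodes an alpha chain of endothelial basement membranes. Lama5 was at 5.29, 6.79, 5.55, 5.71 and 3.94 CPM in the sham rats and 3.26, 14.0, 8.68, 6.02 and 12.2 CPM in the stimulated rats. Rats 7, 8 and 10 were above the sham rats and rat 6 below them. The log2 difference of Lama5 was 0.70 (SE 0.32, adjusted p = 0.488), and its unadjusted p stayed under 0.05 in 3 of the 10 fits with 1 rat left out.

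Lamb1 (XM_003750137) encodes the beta 1 chain, read here from a predicted transcript record. Lamb1 was at 19.6, 25.9, 25.1, 22.8 and 23.2 CPM in the sham rats and 30.6, 29.7, 18.6, 30.2 and 29.9 CPM in the stimulated rats. It was above each sham rat in rats 6, 7, 9 and 10 and below each of them in rat 8. Lamb1 differed by 0.26 (SE 0.14, adjusted p = 0.560) on the log2 scale. Lamb2 (NM_012974) encodes the beta 2 chain found at vessels and synapses. Lamb2 was at 60.3, 64.9, 71.6, 62.3 and 56.5 CPM in the sham rats and 61.1, 51.7, 86.8, 76.5 and 67.4 CPM in the stimulated rats, with rats 8 and 9 the highest of all and rat 7 the lowest. Its log2 fold change was 0.12 (SE 0.13, adjusted p = 0.782). Lamb3, another beta chain, differed by 0.20 (SE 0.35), and Lama1 and Lamc3, chains of less common trimers, differed by 0.28 (SE 0.18) and 0.31 (SE 0.31) on the log2 scale.

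Integrin alpha subunits set the ligand of the receptor. Of the 6 tested, 4 had a higher mean and 2 a lower one, the median log2 fold change was 0.21, and 3 had an unadjusted p under 0.05. Itga5 (NM_001108118) encodes the fibronectin-binding subunit. Itga5 was at 2.85, 2.67, 1.91, 1.49 and 1.97 CPM in the sham rats and 1.36, 16.2, 2.62, 2.45 and 4.80 CPM in the stimulated rats. Rat 7 was the highest, rat 10 was also above the sham rats, and rats 6, 8 and 9 were not. The log2 fold change of 1.35 (SE 0.55, adjusted p = 0.446) became 0.38 without rat 7. Itga1 (NM_030994) encodes a collagen-binding subunit. Itga1 was at 2.33, 0.687, 0.871, 1.61 and 2.05 CPM in the sham rats and 2.04, 4.88, 1.53, 1.58 and 5.26 CPM in the stimulated rats. Rats 7 and 10 were again above the others, and the log2 fold change was 1.00 (SE 0.42, adjusted p = 0.459). Itga6 (NM_053725), a laminin-binding subunit, differed by less but more evenly, at 39.8, 32.5, 44.9, 39.5 and 32.7 CPM in the sham rats and 43.5, 47.7, 42.1, 50.1 and 44.4 CPM in the stimulated rats. Each stimulated rat was above 4 of the 5 sham rats, and rats 7 and 9 were also above sham rat 3. Itga6 differed by 0.27 (SE 0.11, adjusted p = 0.446) on the log2 scale. Itga7, another laminin-binding subunit, was at 51.0 CPM in rat 10 and at 36.0 to 37.5 CPM in the other stimulated rats, beside 29.6 to 42.8 CPM in the sham rats, a log2 difference of 0.16 (SE 0.13). Lower means were found for Itga8, by -0.48 (SE 0.25, adjusted p = 0.547) on the log2 scale, and for Itga4, by -0.25 (SE 0.22).

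Among the integrin beta subunits 5 of 7 tested genes had a higher mean (4 or 5 under other scalings of library size), the median log2 fold change was 0.20 (-0.04 to 0.32 with 1 rat left out), and 1 had an unadjusted p under 0.05. Itgb1 (NM_017022) encodes the common partner of the alpha 1, alpha 5 and alpha 6 subunits. Itgb1 was at 54.9, 60.1, 62.2, 52.8 and 57.3 CPM in the sham rats and 68.2, 84.5, 56.1, 60.6 and 78.5 CPM in the stimulated rats. Rats 6, 7 and 10 were above the sham rats and rats 8 and 9 within their range. Itgb1 differed by 0.28 (SE 0.11, adjusted p = 0.451) on the log2 scale. Itgb5, a vitronectin-binding subunit, varied little, from 50.7 to 66.6 CPM over all rats, and differed by -0.05 (SE 0.09) on the log2 scale. Itgb2, the beta subunit of leukocytes and microglia, was at 33.1 CPM in rat 7 and at 14.0 to 24.3 CPM in the other stimulated rats, beside 16.4 to 22.7 CPM in the sham rats. The difference was 0.22 (SE 0.21) on the log2 scale. Itgb3, Itgb4, Itgb6 and Itgb7 had log2 fold changes of -0.31, 0.02, 0.24 and 0.20, each smaller than its SE.

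Genes that fold, cross-link or anchor the same matrix were read from lists made for the pathway, chosen with earlier results of these data known. Of 65 such genes 51 were matched to a row and 50 were tested. Of these 41 had a higher mean in the stimulated rats, beside 52.19% of all features, and 9 a lower one. At an unadjusted p under 0.05 12 were higher and 2 lower, where 6.7% of all features were higher and 3.16% lower. In edgeR's quasi-likelihood test 0 had an adjusted p under 0.05. Of the 20 tested collagen-modifying enzymes 4 were higher (P4ha1, P4ha3, Plod2 and Serpinh1) and 1 lower (P3h3, log2 fold change -0.38). Lox, the lysyl oxidase on this list, was not matched to a row and was not tested here. The paper lists Lox as upregulated in this model. P4ha1, the catalytic subunit of the collagen prolyl 4-hydroxylase, was at 42.9, 50.1, 43.3, 45.8 and 48.2 CPM in the sham rats and at 57.9, 89.2, 55.2, 64.5 and 64.1 CPM in the stimulated rats, so that each stimulated rat was above each sham rat (the groups did not overlap in 1.29% of all features). Its log2 fold change was 0.52 (SE 0.12, adjusted p = 0.376), and the adjusted p was 0.0428 in edgeR's likelihood ratio test and 0.0599 in DESeq2. On the same scale the collagen chaperone Serpinh1 differed by 0.58 (SE 0.25, adjusted p = 0.458), the lysyl hydroxylase Plod2 by 1.06 (SE 0.42, adjusted p = 0.431) and P4ha3 by 2.21 (SE 0.85, adjusted p = 0.431), the last with values from 0 to 3.11 CPM. The log2 fold change of Plod2 was 0.54 without rat 7 and that of Serpinh1 0.35 without rat 10. Among 8 basement membrane partners 2 were higher, Nid2, a nidogen that joins laminin to type IV collagen, by 1.02 (SE 0.34, adjusted p = 0.409) on the log2 scale (0.57 without rat 10) and Ntn4, a netrin of basement membranes, by 0.40 (SE 0.17).

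On the cell side of the integrins, 6 of 18 tested adhesion and signalling genes were higher at an unadjusted p under 0.05 and 0 lower. Of all features 6.7% were higher and 3.16% lower. Flna, the actin cross-linker filamin A that binds integrin tails, was at 22.4, 17.7, 26.4, 21.8 and 18.8 CPM in the sham rats and 23.6, 64.6, 33.9, 37.6 and 57.6 CPM in the stimulated rats. Rats 7 to 10 were above the sham rats and rat 6 was within their range, the same arrangement as in Fn1. The log2 fold change of Flna was 1.02 (SE 0.23, adjusted p = 0.376), and the adjusted p was 0.0139 in edgeR's likelihood ratio test and 0.0165 in DESeq2. Flna, too, is listed by the paper as upregulated in this model. Vcl, Zyx and Actn1, which encode the focal adhesion proteins vinculin, zyxin and alpha-actinin, were highest in rat 9, at 95.0, 158 and 170 CPM, and had log2 fold changes of 0.59, 0.50 and 0.53. Without rat 9 those of Vcl and Zyx were 0.24 and 0.24. The kindlins Fermt2 and Fermt3, activators of integrins, had log2 fold changes of 0.25 and 0.43. Of 4 tested integrins outside the name rule Itgae, a subunit of intraepithelial lymphocytes, was lower, with a log2 fold change of -0.45 (SE 0.18).

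The stimulated rats differed among themselves. Rat 10 was the highest stimulated rat in 17 of the 48 genes (35.42%, beside 20.38% of all features) and rat 7 in 11 (22.92%, beside 23.88%), against 8 for rat 8 (16.67%, beside 18.8%), 7 for rat 9 (14.58%, beside 19.51%) and 5 for rat 6 (10.42%, beside 17.43%). Rat 10 alone led in a larger share of these genes than of all features. Rat 10 lay above all 5 sham rats in 28 of the 48 genes (58.33%, beside 25.58% of all features), rat 7 in 19 (39.58%, beside 28.76%), rat 9 in 16 (33.33%, beside 25.55%), rat 8 in 12 (25.0%, beside 17.69%) and rat 6 in 7 (14.58%, beside 15.97%). Rat 6 lay below all sham rats in 5 (10.42%, beside 14.23% of all features). It was thus within the sham range in most of these genes, as in most of all features. Rat 7 also lay below all sham rats in 12 genes (25.0%, near the 26.82% of all features), among them Vtn, Col5a3, Col11a2 and Itgb4. Rats 10 and 7 had the highest and the lowest share of unaligned reads, at 45.14% and 32.01%, and the part of alignment in these differences was not tested.

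**Figure D3:**
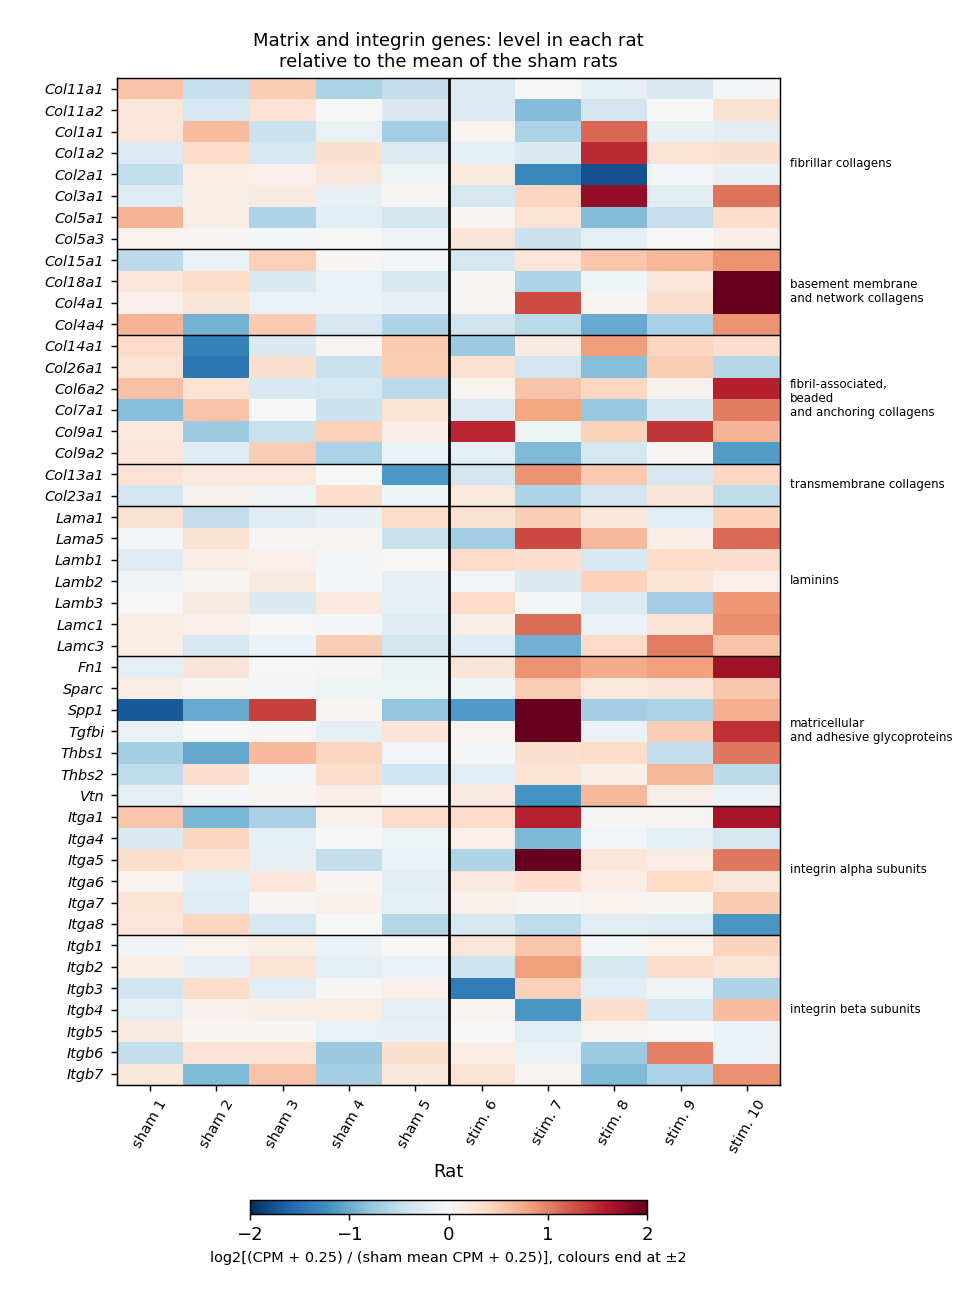
Level of 47 of the 48 genes (rows, grouped by role) in each of the 10 rats (columns), as log2 of the CPM plus 0.25 over the sham mean plus 0.25, with red above and blue below the sham mean and colours ending at 2 log2 units. Dark red cells gather in rats 7 and 10, and in rat 8 for Col1a1, Col1a2 and Col3a1, while rat 6 is close to the sham rats in most rows.

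Some markers of the cells that make matrix were high in the same rats. Summed endothelial markers were at 223.0 to 237.8 CPM in the sham rats and at 248, 209, 294, 245 and 427 CPM in rats 6 to 10. At an unadjusted p under 0.05, the threshold used for each list, 6.7% of all features were higher. Of the 10 endothelial genes 5 were higher, among them Pecam1 and Cdh5. Rat 10 was the highest for these markers, as for Col4a1 and Col18a1, and the sum was lowest in rat 7, the second highest for Col4a1. In rat 7 the list was divided, with the 5 genes past the threshold above all sham rats (Pecam1 at 28.1 CPM, beside at most 16.9 CPM) and the other 5 below all of them (Slco1a4 at 8.22 CPM, beside at least 33.7 CPM). Pericyte and vascular smooth muscle markers were at 105.7 to 128.8 CPM in the sham rats and at 123, 119, 159.8, 148 and 202 CPM in the stimulated rats, with 4 of 9 genes higher. Markers of meningeal and vascular fibroblasts were at 39.2 to 51.1 CPM in the sham rats and at 53.5, 47.8, 93.8, 61.6 and 57.6 CPM in the stimulated rats, with 3 of 10 genes higher. Their sum was highest in rat 8, the rat that led for Col1a1, Col1a2 and Col3a1, with Igf2 alone at 30.5 CPM there. Dcn and Omd were highest in rat 9, Lum in rat 10 and Mgp in rat 7, and the other genes of the list in rat 8. Astrocyte markers, dominated by Gfap, were at 3683 to 4253 CPM in the sham rats and at 3709, 8603, 3895, 4741 and 7982 CPM in the stimulated rats, with 4 of 7 genes higher. The high sums of rats 7 and 10 were those of Gfap, at 6469 and 5396 CPM beside 1327 to 1927 CPM in the sham rats. Without Gfap the astrocyte sums were at 2164 to 2644 CPM in the sham rats and at 2383, 2133, 2520.0, 2662 and 2585 CPM in the stimulated rats. In rat 7 Aldh1l1, Aldoc and Gja1 lay below all sham rats.

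Microglia and macrophage markers were at 414.6 to 495.4 CPM in the sham rats and at 442, 604, 458, 614 and 522 CPM in the stimulated rats, with 2 of 9 genes higher. Choroid plexus markers were low, at 3.72 to 18.9 CPM in the sham rats and at 8.19, 23.4, 11.9, 8.77 and 35.5 CPM in the stimulated rats, with Kl, Kcnj13, Otx2 and Slc4a5 at 0 in some rats and 1 of 7 tested genes, Aqp1, higher. Neuronal markers were at 4012 to 4569 CPM in the sham rats and at 4209, 4166, 4325, 4371 and 4234 CPM in the stimulated rats, with 0 of 8 genes past the unadjusted threshold. The largest part of this sum was Slc17a7, at 1784 to 2286 CPM in the sham rats and 2355 CPM in rat 10. Rbfox3 lay below all sham rats in 4 stimulated rats, Snap25 in 3, Syt1 and Stmn2 in 2 each, and Tubb3 and Prox1 in 1 each. Slc17a7 and Grik4 did so in 0. Of the 8 genes 4 had a higher mean and 4 a lower one. Blood and platelet markers were at 115.7 to 263.7 CPM and at 163, 229.5, 133, 143 and 248 CPM, with 0 of 4. Immediate early genes, which mark recent neuronal activity, were at 124.7 to 164.6 CPM in the sham rats and at 176, 634, 118, 1610.0 and 636 CPM in the stimulated rats, with 8 of 8 higher. The high sum of rat 9 was mostly Arc, at 1118 CPM, and rat 9 was the highest for 3 of the 8 genes, rat 10 for 4 and rat 7 for 1. In each of these lists no gene was at 0 in all 10 rats. The part of these cell types, and of recent activity, in the differences of the matrix and integrin genes was not tested.

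**Figure D4:**
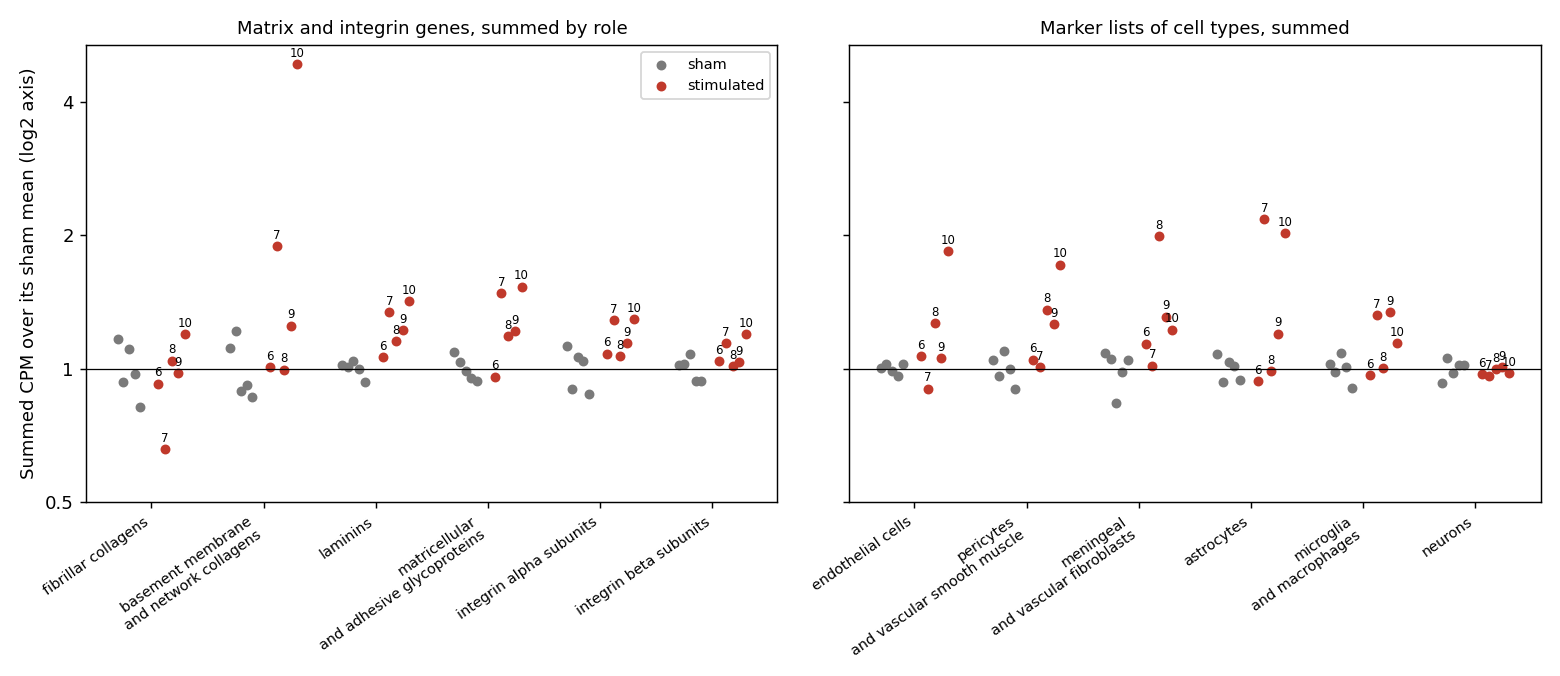
Summed CPM of the matrix and integrin genes by role (left) and of marker lists of cell types (right), each divided by its sham mean, on a log2 axis, for the 5 sham rats (grey) and the stimulated rats 6 to 10 (red, numbered). Rat 10 leads for basement membrane collagens, endothelial cells and pericytes, and rat 8 for fibroblast markers. Rats 7 and 10 lead for the astrocyte list, whose sum is mostly Gfap in these rats. Neuronal sums, of which Slc17a7 is the largest part, stay near 1 in each rat, although some single neuronal genes lie below all sham rats.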

How the data were processed

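Messenger RNA of 10 rat hippocampi (5 sham and 5 stimulated rats, grouped by the treatment label) was analysed. The deposited matrix holds unnormalized whole-number counts, 1 row for each transcript record and 1 column for each rat. Per the study's methods, the authors selected polyadenylated RNA, read it in single reads of 36 cycles, aligned the reads to rn4 with BWA and counted them with their own script. The methods name an Ensembl annotation, whereas the rows carry RefSeq identifiers. Neither the handling of reads shared between genes nor the use of strand was stated, so the 16 of the 48 genes that overlap another gene in the current annotation (Itga1 with Pelo and Col1a1 with Sgca, for example) are uncertain. The methods also count fewer stimulated rats for this assay than the labels do without saying which was left out, so all 10 labelled rats were used.

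Transcript identifiers were matched to symbols through the GRCr8 gene table of RefSeq, which named 12970 of the tested features (57.8%). Unaligned reads were excluded. As in the study, a floor at the 30th percentile of summed counts, 46 here, was applied to the 32041 features. The remaining 22447 entered 1 fit of edgeR (version 4.0.16, under R 4.3.3), with TMM factors and default settings. Groups were compared by its quasi-likelihood test without covariates, and p-values were adjusted by Benjamini-Hochberg over all 22447. Each SE was worked back from this test, as the absolute log2 fold change over the square root of its F statistic. The rats are separate animals with numbers that the groups do not share, so p-values measure the spread between animals and no pairing was possible. Alternatives were the likelihood ratio test, DESeq2 1.42.0, limma-voom (limma 3.58.1), other quasi-likelihood settings, other library scalings, other filters, summed rows of a symbol, and leaving out each rat in turn. Each test was first run on simulated counts, with the same spread between rats for every gene and changes planted in all stimulated rats. Differences carried by single rats were not simulated, so that run does not cover them. Motifs were searched as exact letters in RefSeq promoters. Plots were drawn with matplotlib 3.10.9.

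Genes described with values were those with an unadjusted p under 0.05, the member of each role with the highest mean CPM, the 5 glycoproteins of the name rule, and other pathway genes with an unadjusted p under 0.05. Col1a1, Col1a2, Col2a1, Col18a1, Lamb1, Itga7, Itga8 and Itgb2 and other members outside this rule were given values after their values were seen. The values of 1 of the 48 genes are not reported here, although the counts, medians and sums include it. The genes, the role groups and the pathway and marker lists were chosen with earlier results of these data known, so neither the choice nor the counts are independent evidence of a direction.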

Additional observations from a re-analysis of the deposited data

Results flagged for a closer look

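For each of the 48 genes the rat at either end of its group was compared with the rest of the group by Dixon's ratio, the gap to the nearest other rat divided by the range of the group, with 0.71 as the critical value for 5 rats. Of 96 groups tested (48 genes in 2 groups) 9 exceeded it, where chance gives about 1 in 20, or 4.8. All 9 were in the stimulated group: 4 were rat 10, 3 rat 8 and 2 rat 7.

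Rat 10 stood apart upward in Col18a1 (66.0 CPM, other stimulated rats 9.38 to 17.3, ratio 0.8594), Itga7 (51.0 CPM, others 36.0 to 37.5, ratio 0.9015), Col6a2 (24.4 CPM, others 8.60 to 12.3, ratio 0.7684) and Col4a4 (0.929 CPM, others 0.0639 to 0.226, ratio 0.8123). Rat 8 stood apart upward in both type I collagen chains, Col1a1 (26.9 CPM, others 7.66 to 12.7, ratio 0.7403) and Col1a2 (9.90 CPM, others 2.69 to 4.23, ratio 0.7865), and downward in Lamb1 (18.6 CPM, others 29.7 to 30.6, ratio 0.9203). Rat 7 stood apart upward in Spp1 (21.4 CPM, others 0.543 to 2.63, ratio 0.8999) and in Itga5 (16.2 CPM, others 1.36 to 4.80, ratio 0.7682). Rat 8 was also the rat with the highest summed fibroblast markers, at 93.8 CPM, and rat 10 the one with the highest summed endothelial markers, at 427 CPM. The part of these in the results was not tested.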

How the results depend on the processing

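The count of 14 matrix and integrin genes higher at an unadjusted p under 0.05 was 8 with limma-voom and 6 to 14 with 1 rat left out, and 12 to 15 in the other settings. The count of lower genes, 0, was 0 to 1 with 1 rat left out: Col9a2 without sham rat 4 and without stimulated rat 9, and Itga8 without sham rat 5. The count at an adjusted p under 0.05 was 1 (Fn1) with the likelihood ratio test, 1 (Fn1) with DESeq2 and 0 in all other settings. The count of genes whose groups did not overlap was 1 (Fn1) with library size alone, and 0 to 2 with 1 rat left out, among them Fn1 without sham rat 2 and without stimulated rat 6, Sparc without stimulated rat 6, Itga6 without sham rat 3, and Lamb1 without stimulated rat 8. Leaving out a rat lowers the number of rats that must separate. The median log2 fold change of the 48 genes stayed between 0.23 and 0.29 in all settings.

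Of 746 values of single genes and of this median, 736 kept direction and side of the adjusted threshold. Fn1 and Flna passed it with the likelihood ratio test and DESeq2, and P4ha1 with the likelihood ratio test. The log2 fold change of Vtn was -0.094 with limma-voom and from -0.169 to 0.244 with 1 rat left out, being below 0 without sham rat 1, stimulated rat 6 or stimulated rat 8. That of Spp1 ran from -0.298 without stimulated rat 7 to 2.669. The cause of these changes was not tested. No paired analysis was possible because the groups share no rat numbers. Genes with few counts, such as Itgb7 (46 summed counts) and Col9a1 (72), have values near the limit of 3 counts.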
